A study of Mus musculus with 10 samples.

Results

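Carriers of the inner mitochondrial membrane were examined in whole mammary tumors grown from 4T1 cells, a mouse line of triple-negative breast cancer. The genes were taken by name alone, as every row of the count table whose symbol was Slc25a followed by a number, or Ucp1, Ucp2 or Ucp3, which gave 45 of the 17864 genes of the table. A further 5 annotated genes with such names, Slc25a2, Slc25a18, Slc25a21, Slc25a41 and Slc25a54, were not analysed here. Of the 45 carriers, 41 had enough reads to be tested and 4 did not. The family was put forward with results of these tumors known and Slc25a36 as its leading gene, so that the values of Slc25a36 are given as a description, without a test. Slc25a36 was selected on its CPM in these same sgTaz and sgCon tumors, and the other members were chosen by their names.

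Of the tumors, 5 were grown from 4T1 cells with Cas9 and a control guide RNA (sgCon). The other 5 were grown from 4T1 cells with Cas9 and a guide RNA against Wwtr1, the gene of the Hippo pathway transducer TAZ (sgTaz). In the methods, 100000 cells were injected into mammary fat pad 4 of female mice 6 to 8 weeks old, of the BALB/c or the SCID strain. The strain of the sequenced mice, and whether the edited cells were a pool or a clone, were not given in the sources used here. The paper describes SCID mice as without functional adaptive immunity. In the sequenced tumors, B cell genes summed to 15.4 to 1174 CPM and T cell genes to 59.7 to 720 CPM. Only 1 guide RNA against Wwtr1 was described. TAZ works as a partner of the TEAD transcription factors. Total RNA of whole tumors was sequenced, so that fewer cells of a type and less RNA per cell cannot be told apart.

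Members of the Slc25a family are built from repeated pairs of membrane helices and exchange metabolites between the cytosol and the mitochondrial matrix. They bring ADP and phosphate to ATP synthase, move citrate, malate, aspartate and glutamate for biosynthesis and redox shuttles, and supply the matrix with cofactors, iron and nucleotides. Uncoupling proteins belong to the same family, and Ucp1 lets protons return to the matrix in brown fat. Slc25a36 and Slc25a33 carry pyrimidine nucleotides, which mitochondria need for the synthesis of their own DNA and RNA. A few members work elsewhere, such as Slc25a17 in peroxisomes and Slc25a46 in the outer mitochondrial membrane.

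Expression was measured as CPM, the read count of a gene scaled to the total of its tumor after TMM normalization. Total counts ran from 14753922 to 19595821 in the sgCon group and from 12185383 to 18395558 in the sgTaz group, so that 3 counts correspond to 0.153 to 0.246 CPM. This floor covers counting error only. Wwtr1 ran from 115 to 192 CPM in the sgCon group and from 86.6 to 139 CPM in the sgTaz group, with a log2 fold change of -0.59 (standard error, SE, of 0.15, edgeR adjusted p = 0.096). Its groups overlapped, and counts over the whole gene do not show whether the target site was edited. For the loss of TAZ protein, the paper shows an immunoblot with knockdown in the cells that received the guide RNA. That blot was of the cells, not of the sequenced tumors. All fold changes below are sgTaz against sgCon, and p-values given as edgeR adjusted come from its quasi-likelihood test, with Benjamini-Hochberg adjustment over 14816 genes. Tumor numbers were read as separate mice. The labels do not state this, and p-values then measure only the spread between these samples.

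Lymphoid tissue differed widely between tumors. The 10 B cell genes had summed CPM from 93.9 to 1174 in the sgCon group and from 15.4 to 278 in the sgTaz group, and 10 of 10 lay lower in the sgTaz group. For 8 T cell genes the sums ran from 91.5 to 720 and from 59.7 to 188, and 8 of 8 lay lower. For genes of lymph node stroma and its venules they ran from 43.2 to 823 and from 11.9 to 418, and 5 of 6 tested lay lower, with Ccl19, Chst4, Cr2, Glycam1 and Madcam1 at 0 in at least 1 tumor. In these sums, sgCon tumor 3 was the highest of all 10 tumors and sgTaz tumor 5 the highest of its group. Macrophage genes lay higher in 10 of 10 cases, with sums from 861 to 1957 CPM and from 1687 to 2273 CPM, and epithelial genes lower in 10 of 10, with sums from 2241 to 5254 CPM and from 1654 to 4079 CPM. Fibroblast genes had sums from 1511 to 4665 CPM and from 1693 to 4658 CPM. In these 6 lists edgeR called 0 genes, with 8 B cell, 8 T cell, 5 macrophage and 5 epithelial genes at an unadjusted p below 0.05 in the direction given, while DESeq2 called 1 B cell, 3 T cell, 3 macrophage and 2 epithelial genes in those directions, and limma-voom called 9, 3, 4 and 3. In the lymph node list, 1 gene was at an unadjusted p below 0.05 and called by DESeq2, Fcgbp, on the higher side, while limma-voom called 1 higher and 4 lower. In the fibroblast list, 2 genes were higher at an unadjusted p below 0.05, and DESeq2 and limma-voom called 1, Pdgfra, as higher.

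Slc25a36 (ENSMUSG00000032449.13) is encoded on chromosome 9 (mm10, minus strand, 97074961 to 97111157). The promoters of Slc25a36, of Slc25a33, its closest relative in function, and of Slc25a13, a further carrier with separate groups, are shown because TAZ acts at DNA through TEAD factors and because Slc25a33 did not share the shift of the other genes. Each window holds 250 bases before and 50 bases after the start of the RefSeq transcript in GRCm38.p6, written from 5′ to 3′ on the strand of the gene. Capitals mark matches, on either strand, of GGAATG (the core of the TEAD motif), TGACGT (the core of the CREB and ATF motif), CACGTG (the E-box) and CCAAT (the CCAAT box).
Slc25a36, chr9:97110992-97111291, minus strand: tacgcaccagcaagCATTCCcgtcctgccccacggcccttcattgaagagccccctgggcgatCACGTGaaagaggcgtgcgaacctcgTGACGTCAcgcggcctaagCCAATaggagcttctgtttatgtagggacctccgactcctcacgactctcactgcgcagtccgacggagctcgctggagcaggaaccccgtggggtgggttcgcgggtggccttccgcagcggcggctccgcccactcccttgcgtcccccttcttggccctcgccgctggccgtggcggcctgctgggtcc
Slc25a33, chr4:149774218-149774517, minus strand: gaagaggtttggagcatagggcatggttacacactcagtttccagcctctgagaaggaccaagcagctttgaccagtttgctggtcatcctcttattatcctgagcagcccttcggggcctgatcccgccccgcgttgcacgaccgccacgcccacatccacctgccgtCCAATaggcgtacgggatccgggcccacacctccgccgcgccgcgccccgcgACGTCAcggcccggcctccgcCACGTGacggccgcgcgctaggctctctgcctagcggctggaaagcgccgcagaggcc
Slc25a13, chr6:6217124-6217423, minus strand: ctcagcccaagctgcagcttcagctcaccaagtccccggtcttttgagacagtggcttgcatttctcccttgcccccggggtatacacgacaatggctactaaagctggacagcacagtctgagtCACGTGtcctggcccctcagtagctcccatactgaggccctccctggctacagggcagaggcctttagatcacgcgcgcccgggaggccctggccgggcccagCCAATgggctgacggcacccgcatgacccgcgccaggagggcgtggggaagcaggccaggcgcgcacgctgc

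The window of Slc25a36 held matches of all 4 motifs, with 1 TEAD match at base 15, an E-box at base 64, a pair of overlapping CREB and ATF matches at bases 90 and 92, and a CCAAT box at base 109. That of Slc25a33 held an E-box, a CCAAT box and 1 CREB and ATF match. That of Slc25a13 held an E-box and a CCAAT box. Of all 32851 promoters in the table, 14.7% held the TEAD match, 7.51% the CREB and ATF match, 7.15% the E-box and 37.4% the CCAAT box. Promoters were found for 36 of the 45 carriers, with 49 promoters between them. Of these promoters, 18.4% held the TEAD match, 10.2% the CREB and ATF match, 16.3% the E-box and 44.9% the CCAAT box. Counted per carrier, 7 held the TEAD match, 5 the CREB and ATF match, 7 the E-box and 18 the CCAAT box. Counts per carrier cannot be set against the shares per promoter, since a carrier can have several promoters. The motifs were chosen after the windows had been seen. A match of letters is not a bound site, and no binding was measured here.

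In sgCon tumors, in the order of their numbers, Slc25a36 was at 104, 97.9, 100.5, 98.4 and 90.4 CPM. In sgTaz tumors it was at 128, 124.5, 134, 124 and 122.7 CPM. Every sgTaz tumor lay above every sgCon tumor, with a gap between the highest sgCon and the lowest sgTaz tumor that was wider than the SD of each group. The means were 98.2 ± 4.90 CPM (SD, n = 5) for sgCon and 127 ± 4.53 CPM (SD, n = 5) for sgTaz, a ratio of 1.29 and a log2 fold change of 0.37 (SE 0.059). Within groups, Slc25a36 had the smallest spread of the 41 carriers, with an SD of 0.063 on the log2 CPM scale. The next was Slc25a46, with 0.085. Slc25a36 was selected on these same values, which favors a gene with separate groups and a small spread. The gap and this rank are thus descriptions only.

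In sgCon tumors 1 to 5, where Slc25a36 had the values above, the B cell genes summed to 191, 281, 1174, 93.9 and 546 CPM. The macrophage genes summed to 1169, 1809, 1427, 1957 and 861 CPM in the same tumors. The lowest Slc25a36 was in sgCon tumor 5, with the B cell sum next to the highest and the lowest macrophage sum. The highest sgCon value was in tumor 1, with the macrophage sum next to the lowest. Without sgCon tumor 3 and sgTaz tumor 5 together, the log2 fold change of Slc25a36 was 0.40 (SE 0.074). With each tumor left out in turn, it stayed between 0.34 and 0.39. The parts of lymphoid, macrophage and epithelial content in the difference of Slc25a36 were not tested.

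Slc25a33 (ENSMUSG00000028982.9, chromosome 4) did not pass the test. Its values were 5.53, 11.9, 17.2, 10.05 and 11.3 CPM in sgCon tumors and 13.05, 11.8, 10.07, 8.58 and 10.1 CPM in sgTaz tumors. The lowest and the highest value were both in sgCon tumors, so that the sgTaz values lay within the sgCon range. Means were 11.2 ± 4.17 CPM (SD, n = 5) and 10.7 ± 1.72 CPM (SD, n = 5), with a log2 fold change of -0.061 (SE 0.25, edgeR adjusted p = 0.909). Its sign changed without sgCon tumor 3, to 0.148. Slc25a33 shares 281 exon bases with a gene on the opposite strand, and without strand in the counting such reads cannot be told apart. Per kb of exon, Slc25a36 was at 10.2 CPM in sgCon and 13.2 CPM in sgTaz tumors, and Slc25a33 at 5.93 and 5.68 CPM. These levels depend on exon lengths over all annotated transcripts, 9594 bases for Slc25a36 and 1887 for Slc25a33. The summed CPM of both genes was 109 ± 5.67 CPM (SD, n = 5) in sgCon and 137 ± 5.15 CPM (SD, n = 5) in sgTaz tumors.

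**Figure D1:**
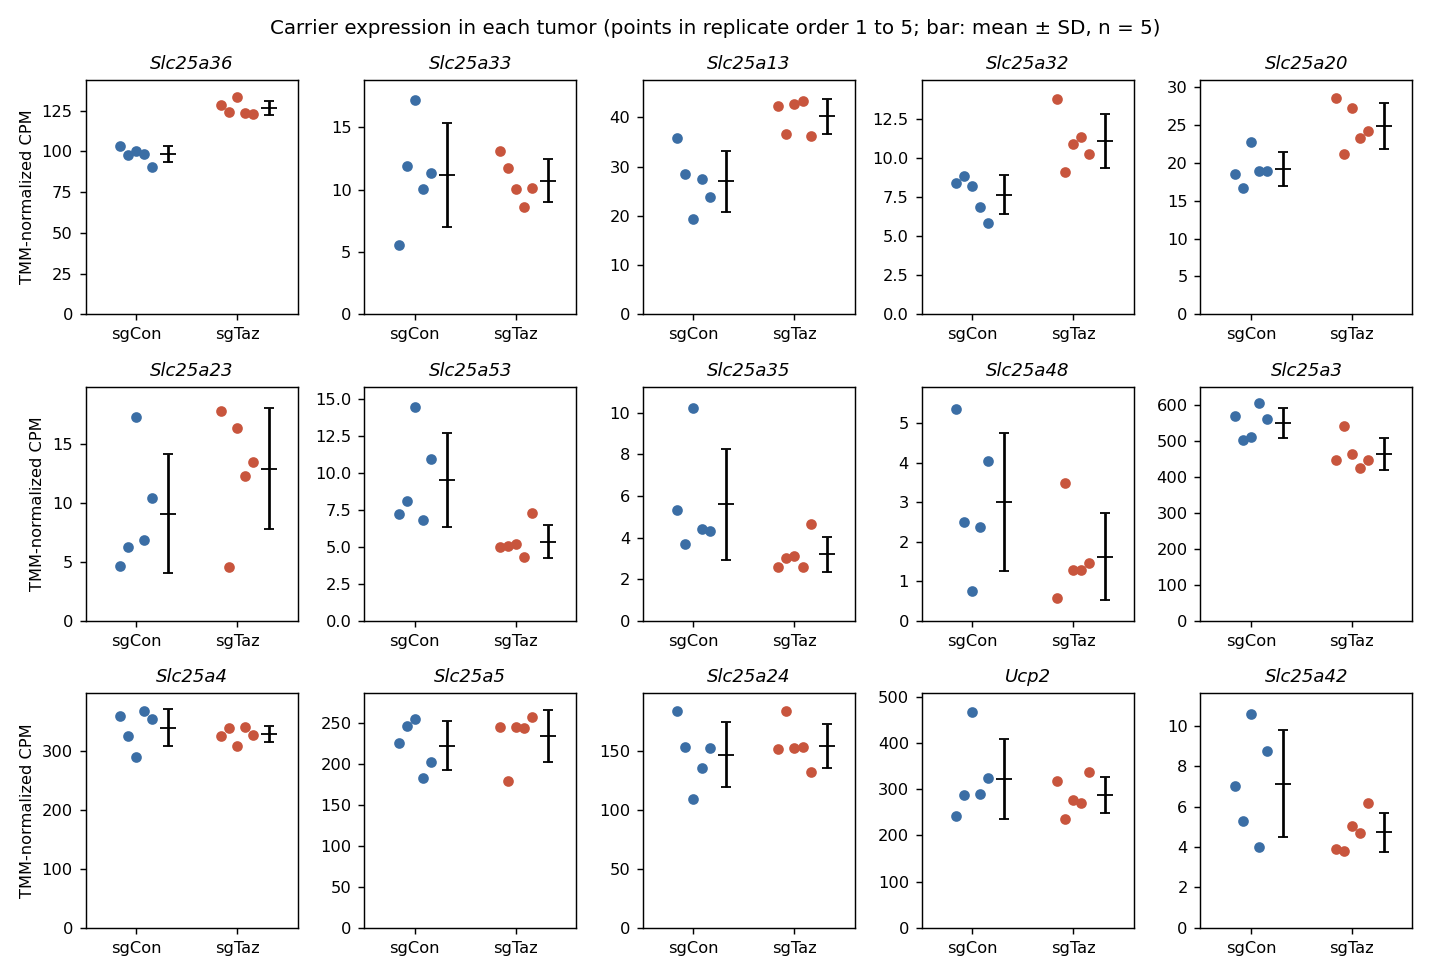
TMM-normalized CPM (y axes, from 0) of 15 carriers in each of the 5 sgCon (blue) and 5 sgTaz (red) tumors, with the mean and SD beside them in black. Slc25a36 sits between 90.4 and 104 CPM in sgCon and between 122.7 and 134 CPM in sgTaz tumors, while in Slc25a53, Slc25a35, Slc25a42 and Ucp2 the highest point is sgCon tumor 3.

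At an edgeR adjusted p below 0.05 were 0 of the 41 carriers and 1 of 14816 genes, or 0.00675%, with 0.00675% of genes higher and 0% lower in the sgTaz group. An unadjusted p below 0.05 was found in 10 carriers, or 24.4% of them against 21.8% of all genes, with 4 carriers higher (9.86% of all genes) and 6 lower (11.9% of all genes). DESeq2, the tool of the study, called 5 carriers against 7.22% of all genes, with Slc25a13, Slc25a20, Slc25a32 and Slc25a36 higher (3.6% of all genes) and Slc25a53 lower (3.62% of all genes). limma-voom called these and Slc25a3 as lower, or 6 carriers against 10.4% of all genes, 4.63% higher and 5.8% lower. These counts include Slc25a36, which was selected on this comparison, so that its call is no test of it. Since the family was chosen with this comparison known, nothing is read from these shares. In 3 carriers, Slc25a36, Slc25a13 and Slc25a32, every sgTaz tumor was above every sgCon tumor, as in 2.44% of all genes tested, and in 0 carriers every sgTaz tumor was below, as in 2.13% of genes.

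The log2 fold change was between -0.25 and 0.25 in 28 of the 41 carriers, and in 9495 of all 14816 genes tested. Its median over the carriers was -0.031, and 17 were higher and 24 lower in sgTaz tumors. Over all genes the median was -0.019. Summed over all 45 carriers, expression was 2799 ± 84.8 CPM (SD, n = 5) in sgCon and 2698 ± 75.6 CPM (SD, n = 5) in sgTaz tumors.

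**Figure D2:**
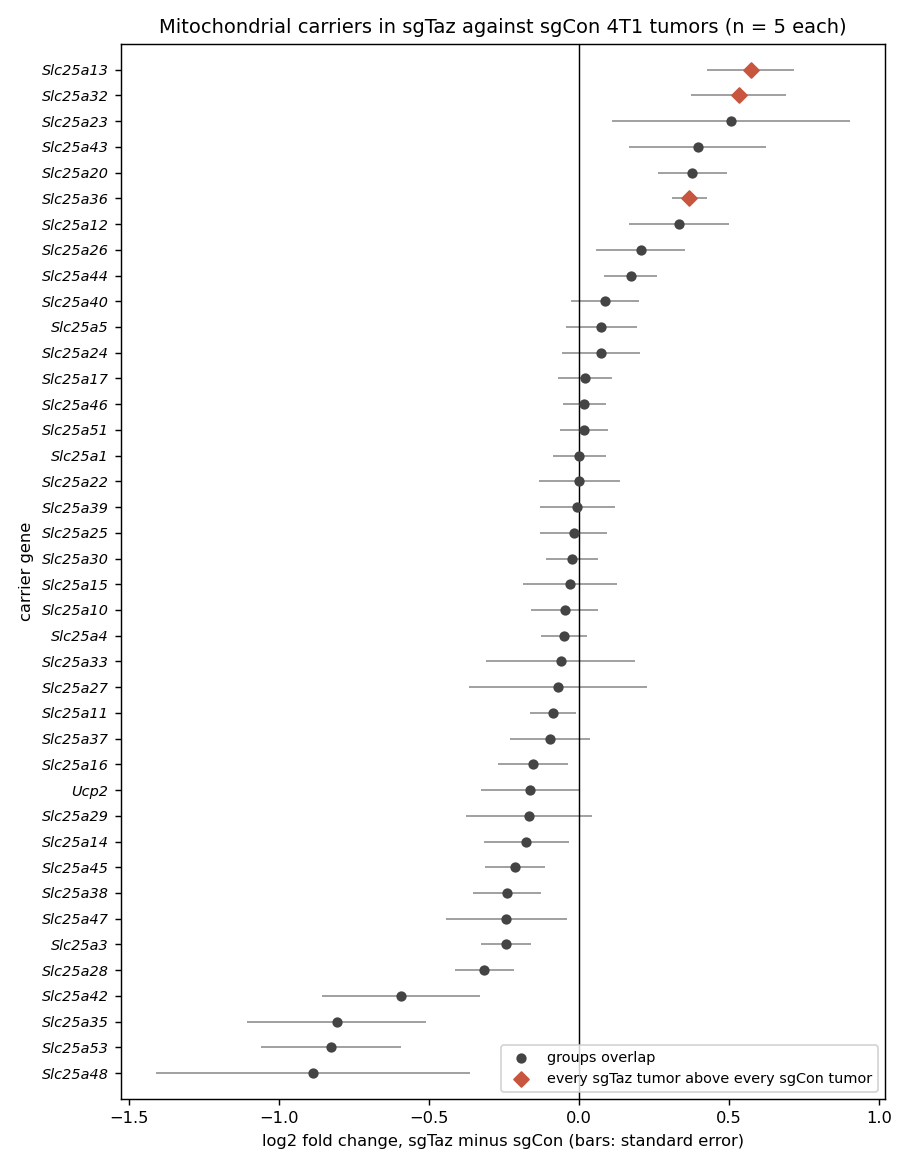
Log2 fold change (x axis, sgTaz minus sgCon, 5 tumors each) of 40 of the 41 tested carriers (y axis, ordered by value), with bars of 1 SE. Red diamonds are the 3 carriers whose groups do not overlap, at 0.37 for Slc25a36, 0.53 for Slc25a32 and 0.57 for Slc25a13.

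Per kb of exon, the carriers that feed ATP synthase were the most abundant. The order of all members over the 10 tumors began with Slc25a4 (142 CPM), Slc25a5 (139 CPM), Slc25a3 (91.5 CPM), Slc25a24 (43.9 CPM) and Ucp2 (43.7 CPM). These 5 held 60.5% of the summed level per kb of the 45 carriers. Exon length joins all annotated transcripts, with 2353 bases for Slc25a4, 5550 for Slc25a3 and 6989 for Ucp2. The order and the share depend on this length. In CPM alone, Slc25a3 (508 CPM) was above Slc25a4 (334 CPM). Slc25a4 and Slc25a5 encode the ADP/ATP carriers ANT1 and ANT2, whose close sequences could have split reads in the counting. Slc25a4 was at 359, 327, 291, 369 and 354 CPM in sgCon tumors and at 326, 339.8, 309, 342 and 327 CPM in sgTaz tumors. Slc25a5 was at 226, 246, 255, 183 and 202 CPM and at 245, 179, 245, 244 and 257 CPM. In both genes the groups overlapped, with log2 fold changes of -0.049 (SE 0.076) for Slc25a4 and 0.075 (SE 0.12) for Slc25a5. After a correction for GC content and gene length, the value of Slc25a4 changed its sign to 0.052, while the median over all genes moved from -0.019 to 0.041. Slc25a4 is also the ADP/ATP carrier of muscle. The 9 skeletal muscle genes had sums from 11.7 to 59.6 CPM for sgCon and from 7.45 to 32.3 CPM for sgTaz. Acta1, Atp2a1, Myh1, Myh2 and Myh4 were at 0 in at least 1 tumor. Of 4 tested, 3 lay lower and 1 higher, with a median log2 fold change of -1.22. DESeq2 and limma-voom called 1 gene, Atp2a1, as lower, and edgeR called 0. The part of muscle in the values of Slc25a4 was not tested.

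Slc25a3, the phosphate carrier, which also brings copper to the matrix, was at 569, 503, 511, 606 and 562 CPM in sgCon tumors. In sgTaz tumors it was at 449, 542, 463, 425 and 447 CPM. The groups overlapped through sgTaz tumor 2 alone, which lay above sgCon tumors 2 and 3. Means were 550.4 ± 42.8 CPM (SD, n = 5) and 465 ± 45.1 CPM (SD, n = 5), with a log2 fold change of -0.24 (SE 0.085, edgeR adjusted p = 0.148). This tumor also had the highest sum of epithelial genes among sgTaz tumors, 4079 CPM against 1654 to 2259 CPM in the others, and its part in the value was not tested. limma-voom with quality weights gave an adjusted p of 0.044 for Slc25a3, and DESeq2 gave 0.0886, within 0.044 to 0.317 over all alternatives.

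Among carriers of amino acids and acyl groups, the highest fold change was that of Slc25a13. Citrin, its protein, is an aspartate/glutamate carrier of the malate-aspartate shuttle. The gene (ENSMUSG00000015112.15, chromosome 6) was at 35.9, 28.5, 19.3, 27.4 and 23.9 CPM in sgCon tumors. In sgTaz tumors it was at 42.3, 36.6, 42.7, 43.4 and 36.2 CPM. The groups did not overlap, by a narrow margin between sgCon tumor 1 and sgTaz tumor 5. The log2 fold change of 0.57 (SE 0.15, edgeR adjusted p = 0.096) was the highest of the 41 tested carriers and stayed between 0.48 and 0.70 in all alternatives run. DESeq2 gave an adjusted p of 0.0099 and limma-voom 0.0233, within 0.0099 to 0.233 over all alternatives. The homologue Slc25a12 showed a log2 fold change of 0.33 (SE 0.17, edgeR adjusted p = 0.267), with groups that overlapped.

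Slc25a20 exchanges carnitine and acylcarnitines, the step that brings long fatty acids to oxidation, and is described because DESeq2 called it, a choice made after its values were seen. It was at 18.5, 16.7, 22.8, 18.98 and 18.9 CPM in sgCon tumors and at 28.6, 21.2, 27.2, 23.2 and 24.2 CPM in sgTaz tumors. Only sgCon tumor 3 and sgTaz tumor 2 crossed, and without sgCon tumor 3 and sgTaz tumor 5 together the groups did not overlap, as in 4.23% of all genes with sgTaz above. Slc25a20 had a log2 fold change of 0.38 (SE 0.11, edgeR adjusted p = 0.114, DESeq2 adjusted p = 0.036, 0.0269 to 0.263 over all alternatives). Crat, the carnitine acetyltransferase, averaged 27.1 ± 2.15 CPM (SD, n = 5) for sgCon and 34.8 ± 2.76 CPM (SD, n = 5) for sgTaz. Its groups did not overlap, with a log2 fold change of 0.36 (SE 0.087, edgeR adjusted p = 0.096). The other 8 tested carriers of this group had log2 fold changes between -0.24 for Slc25a38, the glycine carrier of heme synthesis, and 0.21 for Slc25a26, the carrier of S-adenosylmethionine.

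Slc25a32, which carries folate and FAD (ENSMUSG00000022299.9, chromosome 15), was the third carrier with separate groups. It was at 8.41, 8.86, 8.23, 6.88 and 5.82 CPM in sgCon tumors and at 13.75, 9.11, 10.9, 11.3 and 10.3 CPM in sgTaz tumors. The lowest sgTaz tumor lay just above the highest sgCon tumor. Means were 7.64 ± 1.26 CPM (SD, n = 5) and 11.1 ± 1.72 CPM (SD, n = 5), with a log2 fold change of 0.53 (SE 0.16, edgeR adjusted p = 0.114, DESeq2 adjusted p = 0.0316, 0.0316 to 0.244 over all alternatives). Within groups, likeness to Slc25a36 was measured by Pearson's r over the 10 tumors after group means were taken off, and by this measure Slc25a32 came first. Its r was 0.63 and its Spearman's rho 0.564, but with the 2 tumors most distant from the median Slc25a36 left out, r was 0.312, so that the relation rests on those tumors. Slc25a10 came next (r = 0.503, rho 0.709, r = 0.469 with those tumors left out), then Slc25a17 (r = 0.418, rho 0.2, r = -0.055), and Slc25a46 was the lowest (r = -0.611, rho -0.527, r = -0.39). The order thus depended on the measure, since Slc25a10 was above Slc25a32 by rho, and Slc25a20 (r = 0.674) and Slc25a38 (r = 0.646), picked after their values were seen, were above both with the tumors left out. These are descriptions over tumors that share a group and a depth, without a test.

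Slc25a42, which carries coenzyme A, lay on the lower side without passing the test, and like Slc25a12 and Slc25a28 is named after its values were seen. It was at 7.03, 5.31, 10.6, 4.00 and 8.77 CPM in sgCon and 3.88, 3.81, 5.04, 4.69 and 6.18 CPM in sgTaz tumors. The groups overlapped, and the 2 highest values were those of sgCon tumors 3 and 5, which also had the highest B cell sums. For Slc25a42, the log2 fold change was -0.59 (SE 0.26, edgeR adjusted p = 0.219). Slc25a51, the carrier of NAD, was at a log2 fold change of 0.017 (SE 0.080).

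The lowest fold changes belonged to carriers whose substrates are less settled. Slc25a53 was at 7.21, 8.11, 14.4, 6.83 and 10.96 CPM in sgCon tumors and at 4.96, 5.04, 5.20, 4.29 and 7.28 CPM in sgTaz tumors. All sgTaz tumors other than tumor 5 lay below every sgCon tumor. The log2 fold change was -0.83 (SE 0.23, edgeR adjusted p = 0.104, DESeq2 adjusted p = 0.025, 0.025 to 0.244 over all alternatives). Slc25a35 was at 5.34, 3.70, 10.2, 4.44 and 4.31 CPM and at 2.61, 3.04, 3.11, 2.59 and 4.66 CPM, again with sgCon tumor 3 and sgTaz tumor 5 highest in their groups. Its log2 fold change of -0.81 (SE 0.30, edgeR adjusted p = 0.161) was -0.47 without sgCon tumor 3, a change by more than 1.5 times, and Slc25a35 shares 1151 exon bases with Rangrf on the opposite strand. Slc25a48 was at 5.34, 2.50, 0.749, 2.39 and 4.04 CPM and at 0.573, 3.49, 1.29, 1.29 and 1.46 CPM, with overlapping groups and a log2 fold change of -0.89 (SE 0.52, edgeR adjusted p = 0.344). This value was -0.57 without sgCon tumor 1 and -1.38 without sgTaz tumor 2, both changes by more than 1.5 times.

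Some carriers on the lower side were highest in the tumor of each group with the highest lymphoid sums. In Slc25a53, Slc25a35 and Slc25a42, sgCon tumor 3 was the highest tumor and sgTaz tumor 5 the highest sgTaz tumor, the same tumors as in the B cell, T cell and lymph node sums. Slc25a48 did not share this, since its lowest sgCon value, 0.749 CPM, was in sgCon tumor 3. Over the 5 sgCon tumors, Slc25a53 followed the order of the B cell sums. Slc25a42 did so except that sgCon tumors 1 and 2 changed places, and Slc25a35 did not. B cell genes at 0 in at least 1 tumor were Blk, Cr2, Fcer2a and Ms4a1, and no T cell gene was at 0. Without both tumors, the log2 fold change was -0.74 (SE 0.19, edgeR adjusted p = 0.091) for Slc25a53 and -0.63 (SE 0.20, edgeR adjusted p = 0.142, 0.103 to 0.317 over all alternatives) for Slc25a35, and both then had groups that did not overlap, as in 6.01% of all genes with sgTaz below. The part of lymphoid cells in these differences was not tested.

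**Figure D3:**
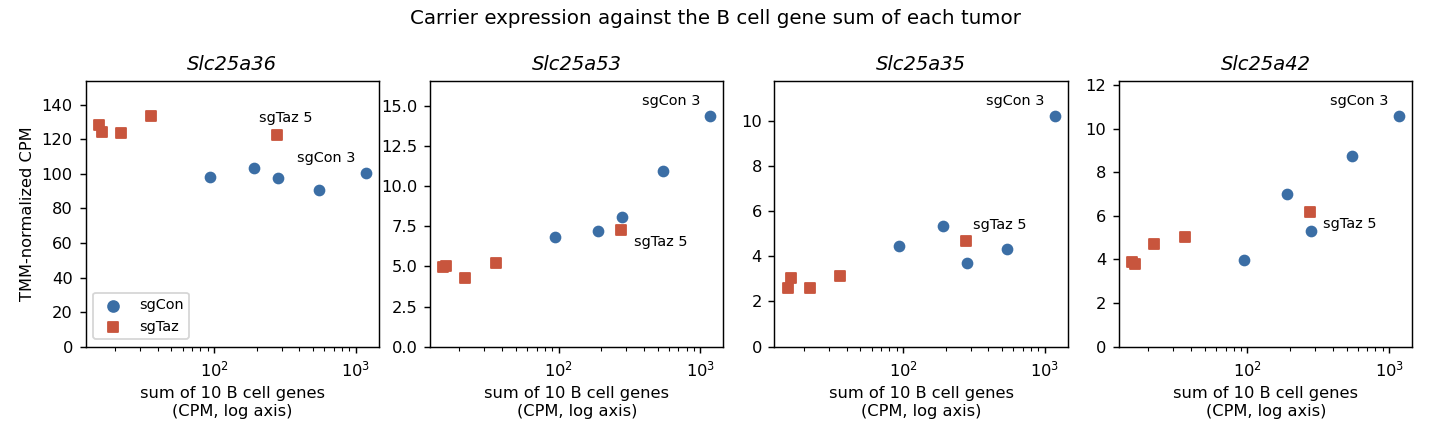
TMM-normalized CPM (y axes, from 0) of 4 carriers against the summed CPM of 10 B cell genes (x axes, log scale) in 5 sgCon (circles) and 5 sgTaz tumors (squares). Slc25a36 stays between 90.4 and 104 CPM in sgCon tumors over B cell sums from 93.9 to 1174 CPM, while Slc25a53, Slc25a35 and Slc25a42 are highest in sgCon tumor 3, with the highest B cell sum.

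Among the calcium-regulated carriers that exchange ATP-Mg for phosphate, Slc25a24 was at 183.5, 153, 109, 135 and 152 CPM in sgCon tumors and at 151, 184, 152, 153 and 132 CPM in sgTaz tumors, with groups that overlapped. Its log2 fold change of 0.073 (SE 0.13) turned to -0.0090 without sgCon tumor 3. Slc25a23 was at 4.62, 6.26, 17.3, 6.88 and 10.4 CPM and at 17.8, 4.59, 16.3, 12.3 and 13.5 CPM. Both groups spanned nearly the same range, and the fitted log2 fold change was 0.51 (SE 0.40, edgeR adjusted p = 0.476). Without sgCon tumor 3 it was 0.88 (SE 0.36, edgeR adjusted p = 0.226, 0.0857 to 0.667 over all alternatives). Slc25a23 shares 168 exon bases with a gene on the opposite strand.

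Uncoupling proteins were represented by Ucp2, a protein of macrophages and lymphocytes among other cells that also exports carbon compounds from the matrix. Ucp2 was at 242, 287, 467, 289.6 and 325 CPM in sgCon and 318, 237, 277, 271 and 337 CPM in sgTaz tumors. The highest tumor of each group was again sgCon tumor 3 and sgTaz tumor 5. Its log2 difference was -0.16 (SE 0.16, edgeR adjusted p = 0.592) and 0.014 without sgCon tumor 3, so that its sign rests on that tumor. Ucp2 shares 305 exon bases with Dnajb13 on the opposite strand. The relatives Slc25a14, Slc25a27 and Slc25a30 had log2 fold changes between -0.18 and -0.023.

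Ucp1 and Ucp3, the uncoupling proteins of brown fat and muscle, were below the limit for testing, as were Slc25a31, the ADP/ATP carrier of testis, and Slc25a34. Ucp1 had 4 counts in all sgCon and 6 in all sgTaz tumors, with 6 of 10 tumors at 0. Ucp3 had 17 and 16 counts, Slc25a31 10 and 22, and Slc25a34 8 and 5. The 7 adipocyte genes had sums from 54.0 to 121 CPM for sgCon and from 39.7 to 246 CPM for sgTaz, with Lep and Plin1 at 0 in at least 1 tumor. Of these, 6 of 6 tested lay higher in the sgTaz group, with a median log2 fold change of 1.38. None had an unadjusted p below 0.05 in edgeR, and DESeq2 and limma-voom called 0. Brown adipocyte genes had sums from 12.4 to 94.6 CPM and from 46.4 to 128 CPM, with Cidea, Cox8b, Elovl3 and Ppargc1a at 0 in at least 1 tumor. Of 3 tested, 1 lay higher and 2 lower, and limma-voom called Dio2 as higher, while edgeR and DESeq2 called 0.

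Neither iron carrier, or mitoferrin, passed the test. Slc25a28 ran from 54.6 to 76.0 CPM in sgCon and from 45.8 to 58.4 CPM in sgTaz tumors, where only sgTaz tumor 2 reached into the sgCon range. Slc25a28 had a log2 fold change of -0.32 (SE 0.099, edgeR adjusted p = 0.123). Slc25a37, the mitoferrin of red cell precursors, ran from 170.5 to 239.7 CPM and from 145 to 229 CPM, with a log2 fold change of -0.097 (SE 0.13). Erythroid genes had sums from 22.5 to 60.5 CPM and from 6.20 to 92.3 CPM, with Slc4a1 at 0 in at least 1 tumor. Neutrophil genes had sums from 189 to 768 CPM and from 70.1 to 294 CPM. In both lists edgeR called 0 genes, with 0 erythroid and 4 neutrophil genes at an unadjusted p below 0.05, all 4 lower, while DESeq2 called 0 and limma-voom 3 neutrophil genes.

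Carriers of citrate, dicarboxylates and oxo acids had values near 0. The log2 fold change of Slc25a1, the citrate carrier that supplies acetyl groups for lipid synthesis, was 0.0015 (SE 0.089). Slc25a10 was at -0.048 (SE 0.11) and Slc25a11, the oxoglutarate carrier of the malate-aspartate shuttle, at -0.087 (SE 0.076). All 3 had groups that overlapped, and their summed level was 140.7 ± 11.02 CPM (SD, n = 5) in sgCon and 136 ± 7.31 CPM (SD, n = 5) in sgTaz tumors.

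**Figure D4:**
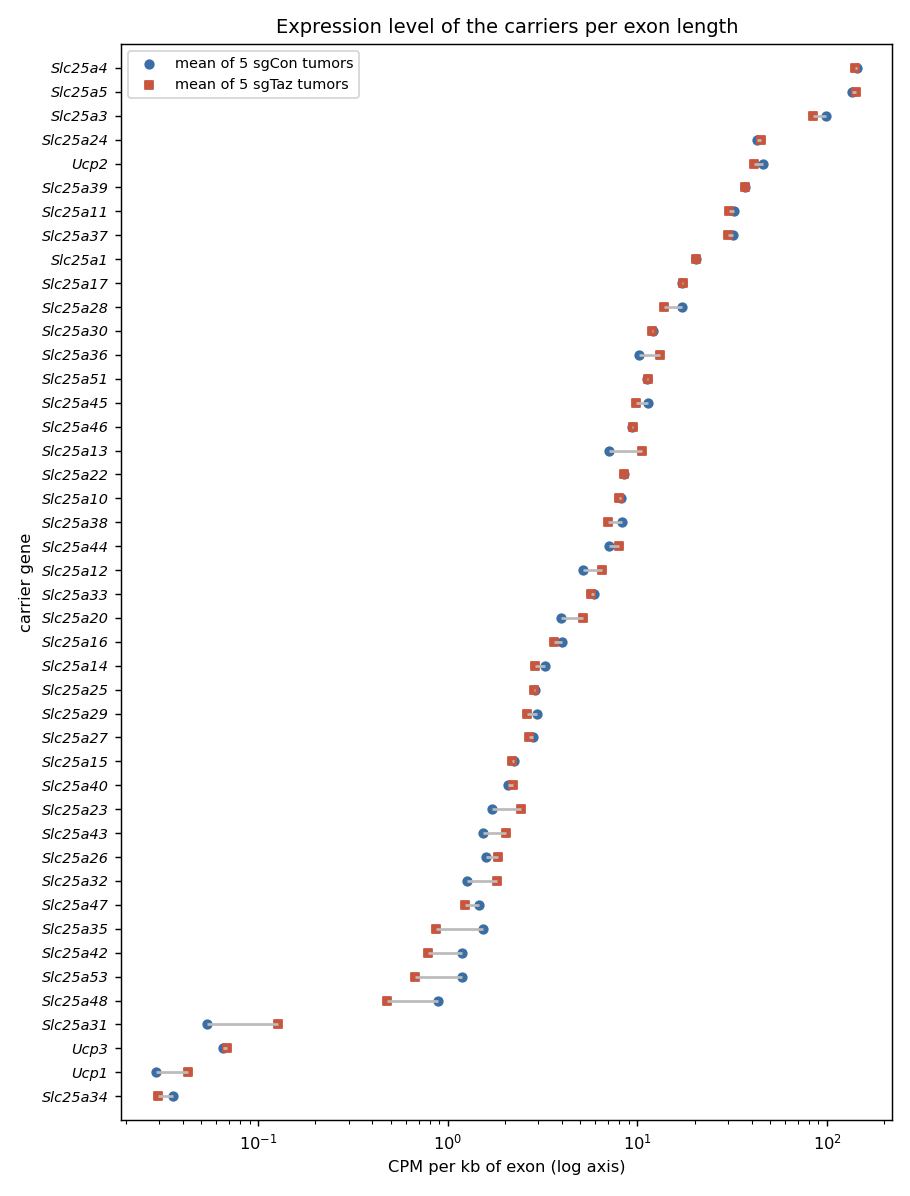
Mean CPM per kb of exon (x axis, log scale) of 44 of the 45 carriers (y axis, ordered by level) in 5 sgCon (blue circles) and 5 sgTaz (red squares) tumors. Slc25a4, Slc25a5 and Slc25a3 lead at 142, 139 and 91.5 CPM per kb over all tumors, and the 4 carriers below the limit for testing lie apart at the bottom.

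Few of the genes that work with the carriers passed any test. Of 21 other mitochondrial transporters and channels, edgeR called 0, with 2 higher and 1 lower at an unadjusted p below 0.05, DESeq2 called 0 and limma-voom 1, on the higher side. Their median log2 fold change was -0.038. The genes with the largest changes were Mcub, a subunit of the calcium uniporter, with a log2 fold change of 0.27 (edgeR adjusted p = 0.262), Sfxn3 with -0.25 and Abcb10 with 0.22. Of 13 genes of carrier import and insertion, edgeR, DESeq2 and limma-voom called 0, with 1 lower at an unadjusted p below 0.05 in edgeR and a median of 0.0018. Timm13 was at -0.30, Timm29 at 0.17 and Timm10b at -0.12 on the log2 scale.

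In pyrimidine synthesis and mitochondrial nucleotide use, the pathway around Slc25a36, edgeR called 0 of 16 genes, with 1 on the higher and 3 on the lower side at an unadjusted p below 0.05, while DESeq2 and limma-voom called 1, Tk2. Below 0 were 12 of 16, with a median log2 fold change of -0.084. Tk2, the thymidine kinase of the matrix, was at 40.4 ± 6.64 CPM (SD, n = 5) in sgCon and 29.0 ± 4.32 CPM (SD, n = 5) in sgTaz tumors, with a log2 fold change of -0.48 (SE 0.13, edgeR adjusted p = 0.101). Cad, which begins pyrimidine synthesis, had a log2 fold change of 0.31 (edgeR adjusted p = 0.175), and Polg, the DNA polymerase of mitochondria, -0.23 (edgeR adjusted p = 0.15). All 3 had groups that overlapped. Of 8 tested enzymes of the malate-aspartate shuttle and of carnitine use, edgeR called 0, with Crat as the 1 gene at an unadjusted p below 0.05 and the 1 gene called by DESeq2 and limma-voom, Cpt1a at 0.17 and Mdh2 at 0.082. Of 9 tested regulators of mitochondrial biogenesis, edgeR and DESeq2 called 0, with 1 lower at an unadjusted p below 0.05 in edgeR, and limma-voom called 1 (Esrra, lower), with a median of 0.095. Their largest changes were 0.38 for Ppargc1b, -0.35 for Esrra and 0.21 for Tfb1m.

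Base composition and gene length moved with fold change in these libraries. Over all genes tested, the median log2 fold change fell from 0.052 in the quintile of genes with the lowest GC content to -0.10 in the quintile with the highest, and rose from -0.13 in the quintile with the shortest exons to 0.063 in the quintile with the longest. Slc25a36 has 9594 bases of exon, and its longest transcript has a GC content of 40.7%, where 8.73% of the genes tested have a lower GC content and 90.0% are shorter. The 867 genes in its quintiles of GC content and of length had a median log2 fold change of 0.091. With a correction for both, the log2 fold change of Slc25a36 was 0.30 (SE 0.085). The correction also moved the median over all genes tested, from -0.019 to 0.041, so that corrected values include this shift. Of 21 carriers above 50% GC, 15 were lower in sgTaz tumors, as were 60.9% of all such genes, and of 20 at or below 50%, 9 were lower, as were 45.9% of all such genes. Spearman's rho between GC content and log2 fold change was -0.326 over the 41 carriers and -0.185 over all genes, as a description across genes, which are not independent replicates. Slc25a13 and Slc25a32 were at 0.65 and 0.48 after the correction, and Slc25a53 at -0.89.

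**Figure D5:**
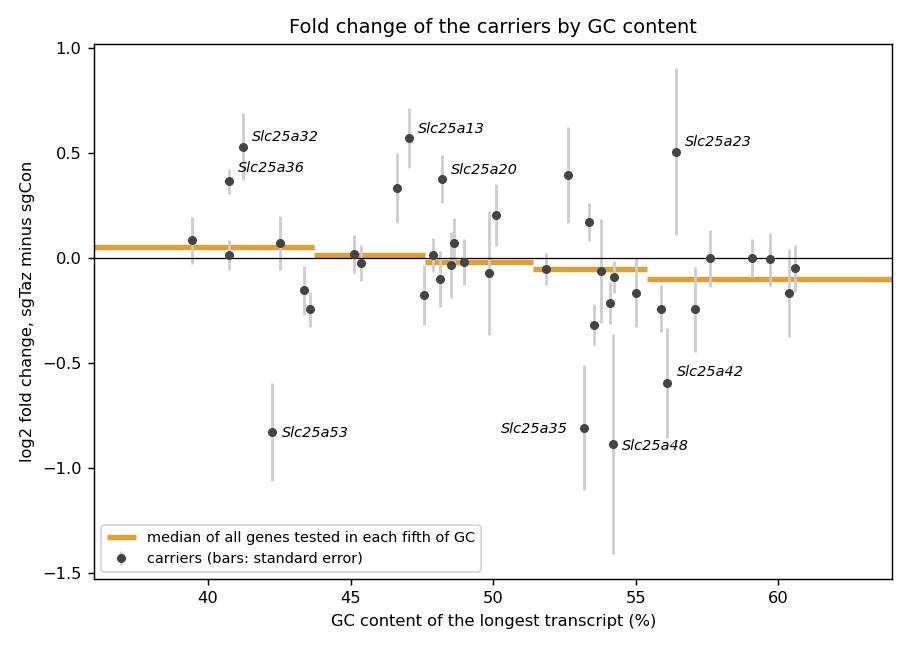
Log2 fold change (y axis, sgTaz minus sgCon) of 40 of the 41 tested carriers against the GC content of their longest transcript (x axis, %), with bars of 1 SE, and the median of all genes tested in each quintile of GC content (orange). The orange medians step down from 0.052 to -0.10, and Slc25a36 lies above them at 40.7% GC and 0.37.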

How the data were processed

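Raw reads were mapped by the authors to mm10 with GENCODE annotation by the 2-pass mode of STAR, checked with RSeQC, and counted per gene with featureCounts of Subread. The deposited values are these raw counts, without normalization, in 1 column per tumor. Tool versions, the strand setting and the rule for genes in the table are not given in the sources used here. The strand setting matters for 11 carriers of the table that share exon bases with a gene on the opposite strand. Slc25a10, Slc25a11 and Slc25a37 are among them. Another 5 columns of the table were not used here.

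Identifiers were matched to GENCODE M21 (17860 of 17864), which gave symbols, exon lengths and GC content. Exon length counts each base that lies in an exon of any annotated transcript, so that it can exceed the length of the transcripts expressed. Counts were tested in R 4.3.3 with edgeR 4.0.16 (filterByExpr by group, TMM, glmQLFit, glmQLFTest, Benjamini-Hochberg threshold 0.05), with DESeq2 1.42.0 and limma 3.58.1 as alternatives, and summarised in Python 3.11.15. The filter kept 14816 genes. Members, lists and tests were chosen with earlier results of these data known. Described with values in every tumor are Slc25a36, Slc25a33, Ucp2, the 5 carriers highest per kb, those with a mean of at least 1 CPM and separate groups, and the 3 largest changes in each direction. Of pathway lists, up to 3 genes are named.

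Alternatives were RLE and upper-quartile normalization, no filter, at least 10 counts in every tumor, each tumor left out, a block for the replicate number, splines that correct for GC content and length, both together, and, chosen after seeing the data, sgCon tumor 3 and sgTaz tumor 5 left out together. Counts of 14816 genes with 200 changed were simulated. There, edgeR recovered 64% of genes changed by 1 and 90.0% of those changed by 2 on the log2 scale. False calls were 7 among 161 for edgeR, 32 among 200 for DESeq2 and 9 among 168 for limma-voom. Smaller changes, such as those of all tested carriers, were not simulated, so these rates of recovery do not apply to them. No tumors of a group agreed within sampling noise. Promoter sequences are from RefSeq (GRCm38.p6). A tested carrier and 1 gene of the list of other transporters are counted in the totals but not reported here by name.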

Additional observations from a re-analysis of the deposited data

Results flagged for a closer look

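Over the 41 carriers, the highest or lowest of 5 tumors stood apart from its group in 3 of 82 groups, and chance alone gives about 1 in 20, or 4.1. Slc25a39, a carrier of glutathione, was at 132 CPM in sgCon tumor 4, with the other sgCon tumors between 91.5 and 99.5 CPM. The other values were both low values of sgTaz tumor 2. Slc25a5 was at 179 CPM in this tumor, with the others between 244 and 257 CPM, and Slc25a23 at 4.59 CPM, with the others between 12.3 and 17.8 CPM. The same tumor had the highest Slc25a3 of the sgTaz tumors and the highest sum of epithelial genes, 4079 CPM against 1654 to 2259 CPM. The part of tumor cell content in these values was not tested.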

How the results depend on the processing

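The number of calls depended on the test. Against 1 gene higher and 0 lower with edgeR, DESeq2 called 533 higher and 537 lower, 4 and 1 of them carriers, and limma-voom 686 and 860, 4 and 2 of them carriers. Over genes that had 10 or more counts in all tumors, 4 were higher and 1 lower, and 0 genes were called without a filter (3610 at an unadjusted p below 0.05) and with GC content and length corrected (3044). With 1 tumor left out, 0 to 42 genes were higher and 0 to 130 lower, and 0 to 1 carriers higher, the most without sgTaz tumor 5 (42 and 130 genes, 1 carrier) and without sgTaz tumor 2 (40 and 35 genes, 1 carrier), and at most 4 higher and 2 lower without any of the others. Without sgCon tumor 3 and sgTaz tumor 5 together, 51 genes were higher and 136 lower, with 1 carrier. The carrier in these counts is Slc25a36, which was selected on this comparison, so that they are no test of it. The median of the carriers was 0.017 with the correction and 0.033 with correction and replicate block, and between -0.069 and -0.0079 with 1 tumor left out. Over all genes, the median was 0.041 with the correction and 0.043 with correction and block. The value of Slc25a36 was 0.297 and 0.298 with these corrections.

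Among the named carriers, signs changed in 4. With 1 tumor left out, Slc25a33 ran from -0.232 to 0.148 (without sgCon tumor 3), Ucp2 from -0.249 to 0.0145 and Slc25a24 from -0.00898 to 0.167. Slc25a33 was at 0.00905 without sgTaz tumor 4, 0.071 with the correction, 0.122 with correction and block, and 0.177 without both tumors. The positive Ucp2 and the negative Slc25a24 were also those without sgCon tumor 3. Slc25a24 was at -0.0117 with limma-voom, and Slc25a4 at 0.0516 with the correction and 0.0578 with correction and block. Same-numbered tumors did not deviate together (r between -0.243 and 0.221), so that the numbers were not read as pairs. With the replicate block, 0 genes were called (2462 at an unadjusted p below 0.05). The causes of these shifts were not tested. Depth limits Ucp1, Ucp3, Slc25a31 and Slc25a34, at 12 counts or fewer per tumor.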
